A study of Macaca mulatta with 8 samples.

Results

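PGR, RUNX1, RUNX2, CEBPB and NRIP1 encode transcription regulators that mouse and rat studies tie to ovulation, and they were followed here in granulosa cells of the rhesus macaque (Macaca mulatta). They are 5 of the 14132 genes measured, and were read by every probe set whose platform annotation gave exactly 1 of these symbols. That came to 18 of the 52766 probe sets tested: 1 for PGR, 7 for RUNX1, 5 for RUNX2, 2 for CEBPB and 3 for NRIP1. A probe set is a group of short array probes that report 1 signal for a transcript. The VVM-GC group held 4 arrays of granulosa cells taken after follicle-stimulating hormone (FSH) and an ovulatory dose of human chorionic gonadotropin (hCG). The PM-GC group held 4 arrays of cells taken after FSH alone. Both groups thus shared FSH stimulation, and the stated difference between them was hCG, which acts through the luteinizing hormone (LH) receptor. The sample labels describe cells of cumulus-oocyte complexes, whereas the series design describes mural granulosa cells of the follicle wall. Age, genotype, hormone doses, the hours between hCG and collection, and whether follicles or animals were pooled were not stated in the labels. Nothing says that the 4 replicates came from separate animals, so p-values measure only the spread between these samples, which may be technical.

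The LH surge starts a programme of transcription in granulosa cells that ends in follicle rupture and the formation of the corpus luteum. PGR is the nuclear progesterone receptor, a ligand-activated transcription factor without which mouse follicles do not rupture. RUNX1 and RUNX2 are Runt-domain factors that bind DNA together with a shared partner, CBFB, and both are induced by LH or hCG in rodent granulosa cells. CEBPB is a basic leucine zipper factor that acts with CEBPA downstream of LH in mouse granulosa cells. NRIP1, also called RIP140, binds no DNA itself. It is recruited by nuclear receptors as a corepressor or coactivator, and mice without it do not release their oocytes.

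Among the member probe sets, 7 were higher and 3 were lower in VVM-GC than in PM-GC, and 8 did not pass. Passing means an adjusted p below 0.05 from limma, a linear model with a moderated variance, adjusted over all probe sets. Of all probe sets 14.1% passed, 7.24% as higher and 6.85% as lower. The VVM-GC and PM-GC arrays did not overlap for 10 of the 18, against 19.3% of all probe sets, and these were the same 10 that passed. The median difference over the 18 was 0.26 on the log2 scale, against -0.07 over all probe sets. The members were chosen with earlier results of these data known, so these counts are a description. Every gene had at least 1 probe set that passed. The same held for 34.1% of the 6375 genes with 2 or more probe sets. It held for 54.8% of the 420 genes with 5 or more, the class of RUNX1 and RUNX2. All probe sets of CEBPB passed as higher, as did the only one of PGR, and all of NRIP1 passed as lower. Only 3 of 7 for RUNX1 and 1 of 5 for RUNX2 passed, all of them as higher. In bulk RNA, a change in the number of cells of one kind and a change in RNA per cell cannot be told apart.

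**Figure D1:**
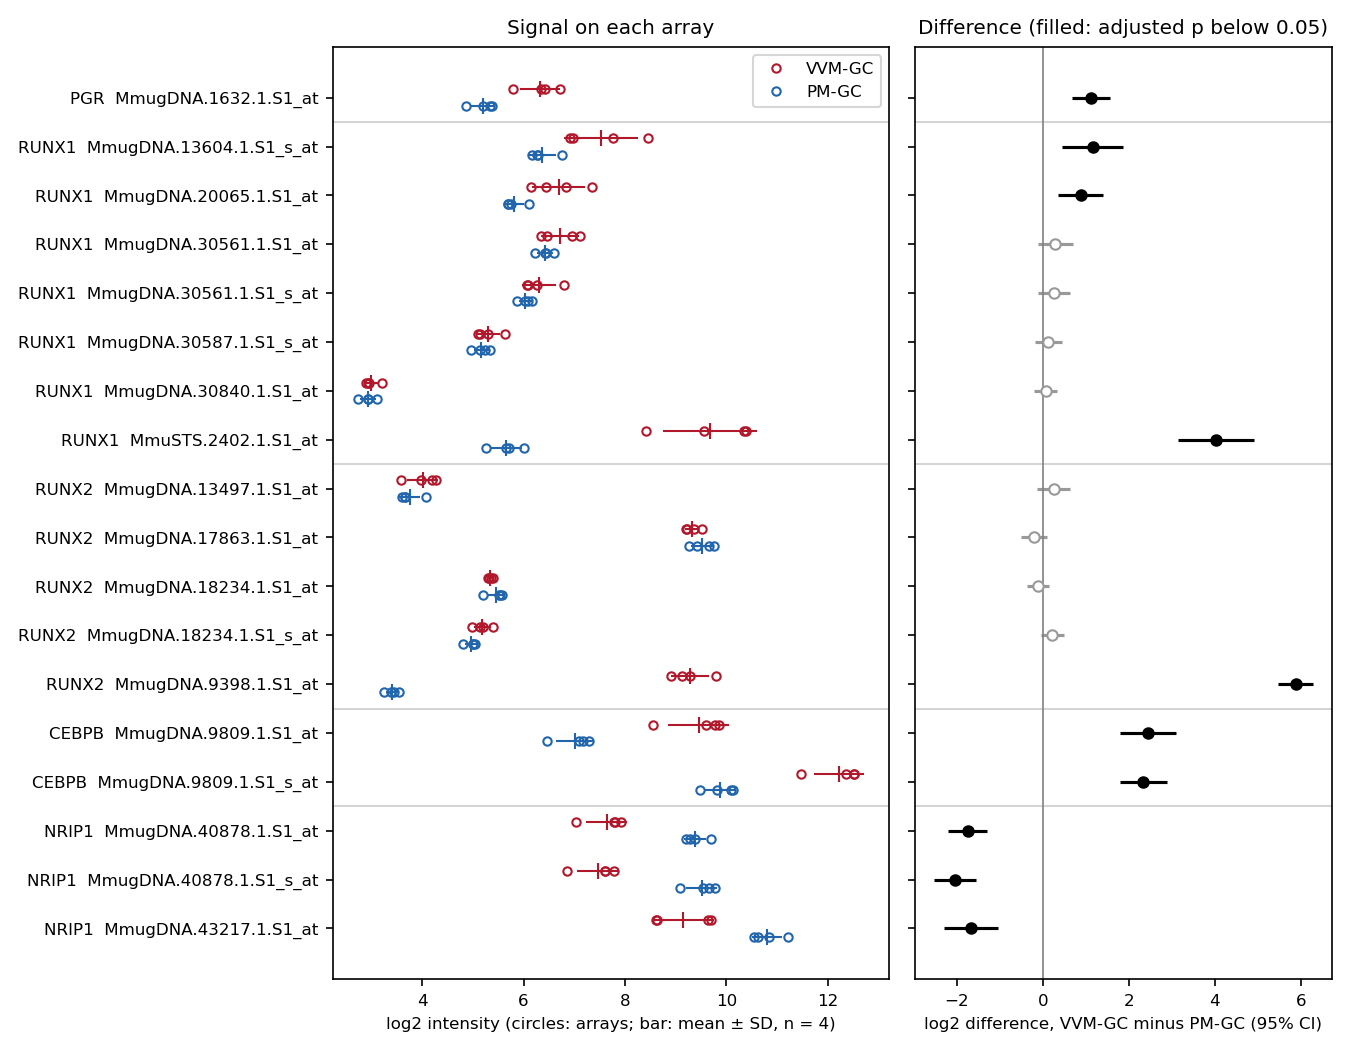
Left, log2 intensity of the 18 member probe sets on each array (circles), with mean and SD as a bar, for VVM-GC (red, upper line of each pair) and PM-GC (blue, lower line), n = 4 each. Right, the log2 difference, VVM-GC minus PM-GC, with its 95% confidence interval; the 10 filled points passed the threshold and the 8 open ones did not.

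Granulosa markers were present in both groups. INHA, a subunit of inhibin, read 13.50 ± 0.19 in VVM-GC and 14.07 ± 0.08 in PM-GC arrays (SD, n = 4). Of 10 measured granulosa markers 9 were lower and 1 did not pass. Over all 14132 genes, each by its probe set of highest mean signal, 11.1% passed as lower. The summed linear intensity of the 10 markers was 37652 to 42508 in VVM-GC against 56789 to 63839 in PM-GC arrays. FSHR and FOXL2, which define these cells, could not be matched to a probe set with 1 symbol. RUNX1 and CEBPB are also active in white blood cells. Of 12 leukocyte markers 1 was lower, CSF1R, and 11 did not pass. The leukocyte sum was 886 to 2073 in VVM-GC against 1887 to 2149 in PM-GC arrays, with PTPRC at 6.01 ± 1.57 in VVM-GC and 6.49 ± 0.43 in PM-GC. Of 4 erythrocyte markers 1 was lower, ALAS2, a call lost in 6 of 14 alternative analyses and on averaging its probe sets (-0.44). Their sum was 352 to 1505 in VVM-GC against 1683 to 2333 in PM-GC arrays. HBA averaged 8.26 ± 0.90 in VVM-GC and 9.72 ± 0.60 in PM-GC. Of 11 oocyte markers 1 was higher, KIT, a receptor kinase also made by other cells. Their sum was 1479 to 2488 in VVM-GC against 881 to 1095 in PM-GC arrays. That sum includes KIT, at 10.06 ± 0.68 in VVM-GC and 6.99 ± 0.44 in PM-GC, and was not computed without it. The median difference over the 11 oocyte markers was -0.10, and 10 did not pass. The egg coat gene ZP3 stood at 6.31 ± 0.13 in VVM-GC and 6.33 ± 0.12 in PM-GC. None of 11 endothelial or 6 stromal markers passed. Of 7 theca markers 1 was lower, CYP17A1, at 4.55 ± 0.21 in VVM-GC and 5.02 ± 0.13 in PM-GC. Its other probe set differed by 0.08, and the average of both, -0.19, did not pass. The sums of the endothelial, stromal and theca lists overlapped between the groups. The part of other cells in the results below was not tested. Array medians lay between 5.44 and 5.54 on the log2 scale, and no pair of arrays held identical values. The difference of 3′ and 5′ probe sets was taken for ACTB and GAPDH. For ACTB it was 4.77 ± 0.31 in VVM-GC and 4.75 ± 0.05 in PM-GC (exact permutation test, two-sided, p = 0.914). The ACTB difference was highest on VVM-GC array 3, at 5.18, and lowest on VVM-GC array 1, at 4.47. For GAPDH it was 2.64 ± 0.10 in VVM-GC and 2.74 ± 0.08 in PM-GC (exact permutation test, two-sided, p = 0.2). The GAPDH difference was highest on PM-GC array 2, at 2.79, and lowest on VVM-GC array 1, at 2.52. RNA integrity and the 2 rounds of amplification may both enter these differences, and they were not told apart.

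PGR, the receptor, was read by 1 probe set, MmugDNA.1632.1.S1_at. It gave log2 intensities of 5.79, 6.34, 6.72 and 6.42 on VVM-GC arrays 1 to 4, against 5.33, 5.20, 5.37 and 4.87 on PM-GC arrays 1 to 4. All VVM-GC arrays were higher than all PM-GC arrays, and VVM-GC array 1 came closest to them. The log2 difference was 1.13 (SE 0.20, 95% confidence interval 0.68 to 1.57), a 2.18-fold increase (adjusted p = 0.00399). By size of increase this ranked 2116 of 52766 probe sets. The PM-GC signal lay below the array medians, and with 32 added to each intensity the difference was 0.71, still past the threshold. The isoforms of the receptor were not analysed here.

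CEBPB, the leucine zipper factor, rose about equally on both of its probe sets. MmugDNA.9809.1.S1_at read 9.78, 9.60, 8.55 and 9.87 on VVM-GC arrays, against 7.09, 7.29, 7.17 and 6.46 on PM-GC arrays. MmugDNA.9809.1.S1_s_at read 12.52, 12.36, 11.48 and 12.51 on VVM-GC arrays, against 10.09, 10.13, 9.82 and 9.48 on PM-GC arrays. On both, VVM-GC array 3 was the lowest of its group, and on both it still lay above every PM-GC array. The increases were 5.46-fold (log2 difference 2.45, SE 0.29, adjusted p = 0.000418) and 5.06-fold (2.34, SE 0.24, adjusted p = 0.000187). They differed from each other by 0.11 on the log2 scale.

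NRIP1, the coregulator, was the gene of the 5 that fell, on all of its probe sets. MmugDNA.40878.1.S1_at read 7.79, 7.92, 7.79 and 7.04 on VVM-GC arrays, against 9.39, 9.28, 9.69 and 9.20 on PM-GC arrays. MmugDNA.40878.1.S1_s_at read 7.60, 7.79, 7.60 and 6.85 on VVM-GC arrays, against 9.65, 9.54, 9.77 and 9.08 on PM-GC arrays. VVM-GC array 4 was the lowest on both, and the groups did not overlap. MmugDNA.43217.1.S1_at read 9.64, 9.71, 8.60 and 8.62 on VVM-GC arrays, against 10.63, 10.85, 11.22 and 10.55 on PM-GC arrays. Here VVM-GC arrays 3 and 4 were about equally low. NRIP1 was 3.37-fold lower on the first (log2 difference -1.75, SE 0.20, adjusted p = 0.000305), 4.15-fold lower on the second (-2.05, SE 0.22, adjusted p = 0.000215) and 3.17-fold lower on the third (-1.67, SE 0.28, adjusted p = 0.00314).

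RUNX1 rose on 3 of 7 probe sets, by very different amounts. MmuSTS.2402.1.S1_at read 10.39, 10.36, 8.42 and 9.56 on VVM-GC arrays, against 6.01, 5.65, 5.25 and 5.71 on PM-GC arrays. The lowest VVM-GC array, array 3, still stood well above the highest PM-GC array. The increase was 16.3-fold (log2 difference 4.03, SE 0.39, adjusted p = 0.000129), rank 127 of 52766 by size of increase. MmugDNA.13604.1.S1_s_at read 7.76, 8.46, 6.92 and 6.98 on VVM-GC arrays, against 6.28, 6.17, 6.26 and 6.76 on PM-GC arrays. MmugDNA.20065.1.S1_at read 6.83, 7.35, 6.15 and 6.44 on VVM-GC arrays, against 5.75, 5.70, 5.69 and 6.10 on PM-GC arrays. On both, VVM-GC array 2 was the highest and array 3 the lowest, and arrays 3 and 4 came close to PM-GC array 4. Their increases were 2.23-fold (1.16, SE 0.32, adjusted p = 0.0361) and 1.84-fold (0.88, SE 0.23, adjusted p = 0.0323). Across 14 alternative analyses their adjusted p ranged up to 0.0922 and 0.0817, and the calls were lost in 6 and 7 of them, among them those without VVM-GC array 1 or without PM-GC array 1, 2 or 3. The remaining 4 probe sets did not pass. Their differences were 0.29 and 0.27 for MmugDNA.30561.1.S1_at and MmugDNA.30561.1.S1_s_at, 0.13 for MmugDNA.30587.1.S1_s_at and 0.06 for MmugDNA.30840.1.S1_at, and their groups overlapped. The 95% confidence interval of the difference reached 0.69 at most among these 4.

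RUNX2 gave the largest increase of the 18 probe sets, on MmugDNA.9398.1.S1_at alone. It read 9.81, 9.13, 8.90 and 9.29 on VVM-GC arrays, against 3.55, 3.45, 3.24 and 3.37 on PM-GC arrays. Every VVM-GC array was far above every PM-GC array, and the spread was small in both groups (SD 0.38 in VVM-GC and 0.13 in PM-GC). The increase was 59.0-fold (log2 difference 5.88, SE 0.18, 95% confidence interval 5.48 to 6.29, adjusted p = 3.51e-07). It ranked 15 of 52766 by size of increase and 4 by the moderated statistic. The PM-GC signal was near the low end of the array, so the fold depends on the background correction, and with 32 added to each intensity the difference was 3.95. MmugDNA.17863.1.S1_at, the RUNX2 probe set with the highest mean signal, read 9.21, 9.36, 9.52 and 9.23 on VVM-GC arrays, against 9.76, 9.43, 9.27 and 9.65 on PM-GC arrays. Its groups overlapped (difference -0.20, 95% confidence interval -0.50 to 0.10, adjusted p = 0.392). The other 3 probe sets, MmugDNA.13497.1.S1_at, MmugDNA.18234.1.S1_at and MmugDNA.18234.1.S1_s_at, differed by 0.26, -0.12 and 0.22 and did not pass.

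**Figure D2:**
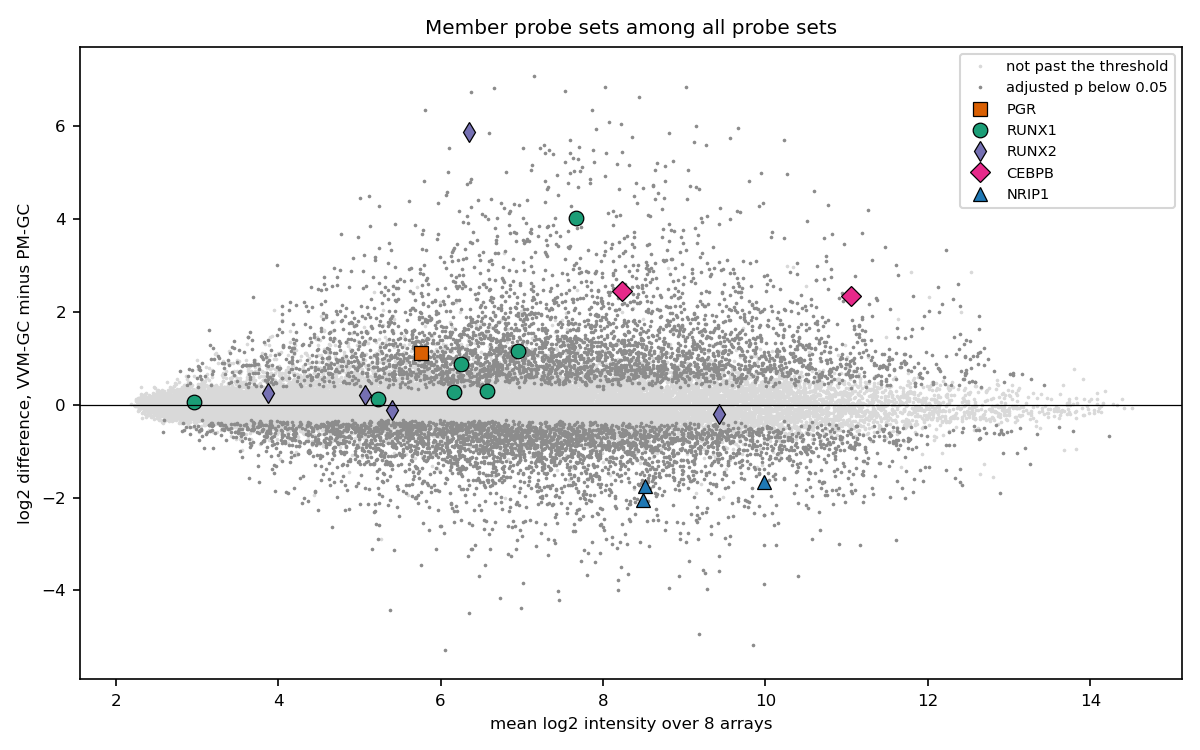
Each point is a probe set, with its mean log2 intensity over the 8 arrays on the horizontal axis and the log2 difference, VVM-GC minus PM-GC, on the vertical axis; darker grey marks an adjusted p below 0.05. RUNX2 and RUNX1 each have 1 probe set far above their others (5.88 and 4.03), CEBPB lies at 2.45 and 2.34, and the 3 NRIP1 probe sets lie between -2.05 and -1.67.

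How far probe sets of 1 gene moved apart was described by the difference between them within each array, for all 35 pairs within RUNX1, RUNX2, CEBPB and NRIP1. That RUNX1 and RUNX2 have probe sets that disagree was known from these arrays when the genes were chosen, so this is a description with no test. The per-array difference did not overlap between VVM-GC and PM-GC for 20 pairs, against 19.4% of all 18076 within-gene pairs on the array. Of the 20, 19 were in RUNX1 and RUNX2. Pairs of 1 gene share probe sets and are not independent. In RUNX1, 14 of 21 pairs separated: each of the 3 that rose against each of the 4 that did not, and MmuSTS.2402.1.S1_at against both of the others that rose. Those last differences were 2.87 and 3.14 on the log2 scale. In RUNX2, 5 of 10 separated: the 4 pairs with MmugDNA.9398.1.S1_at, which differed by 5.63 to 6.08, and the pair of MmugDNA.18234.1.S1_s_at and MmugDNA.18234.1.S1_at, which differed by 0.34. In NRIP1, 1 of 3 separated, by 0.30.

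For scale, the same spread was computed for other genes, again as a description of values known when the genes were chosen. The highest minus the lowest log2 difference among the probe sets of a gene was 6.08 for RUNX2 and 3.97 for RUNX1. The median was 0.77 over the 420 genes with 5 or more probe sets, among which RUNX2 ranked 3 and RUNX1 ranked 8. For NRIP1 and CEBPB it was 0.39 and 0.11, against a median of 0.32 over the 6375 genes with at least 2 probe sets. Calls in opposite directions within a gene were found in 16 of the 420 genes, and RUNX1 and RUNX2 were not among them. When the probe sets of a gene were averaged first, all 5 genes passed, against 24.1% of the 14132 genes. RUNX2 then differed by 1.21 (adjusted p = 3.99e-05 over 14132 genes) and RUNX1 by 0.97 (adjusted p = 0.00507). Taking the brightest probe set of each gene instead gave -0.20 for RUNX2 (adjusted p = 0.338) and 4.03 for RUNX1 (adjusted p = 0.000108). Suffixes ending in s_at mark, in Affymetrix naming, probes shared by several transcripts. The probes' sequences and their places in each transcript were not analysed here, so whether isoforms, transcript ends or unspecific binding moved with these differences was not tested. On every array the 5′ probe sets of ACTB read lower than its 3′ ones, by 4.47 to 5.18 on the log2 scale. The part of such a loss towards the 5′ end in the spread between probe sets was not tested.

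**Figure D3:**
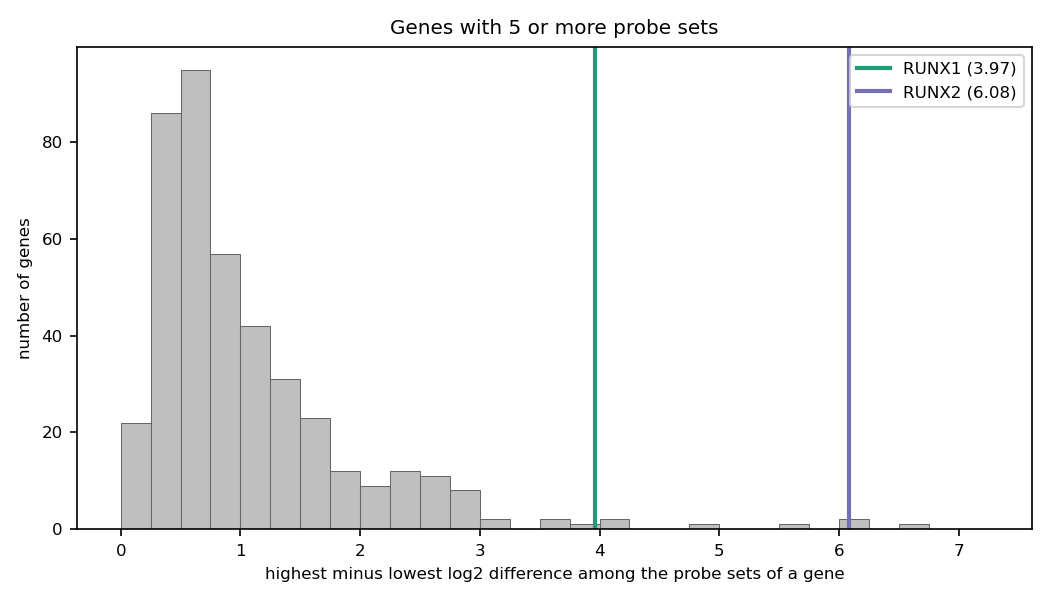
Number of genes by the highest minus the lowest log2 difference among their probe sets, for the 420 genes with 5 or more probe sets. RUNX1 (3.97) and RUNX2 (6.08) stand in the right tail, with a median of 0.77 over all these genes.

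The 4 VVM-GC arrays did not keep 1 order across the genes. Array 3 was the lowest of its group on the 3 RUNX1 probe sets that rose, on MmugDNA.9398.1.S1_at of RUNX2 and on both CEBPB probe sets. It was the highest of its group for PGR. For NRIP1, array 4 was lowest on 2 probe sets and array 3 on the third. Array 3 also had the highest 3′ to 5′ difference of ACTB, and the part of this in the order of the arrays was not tested. Leaving array 3 out gave differences of 4.45 for MmuSTS.2402.1.S1_at of RUNX1 and 2.75 for MmugDNA.9809.1.S1_at of CEBPB, and the same 10 of 18 member probe sets passed.

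**Figure D4:**
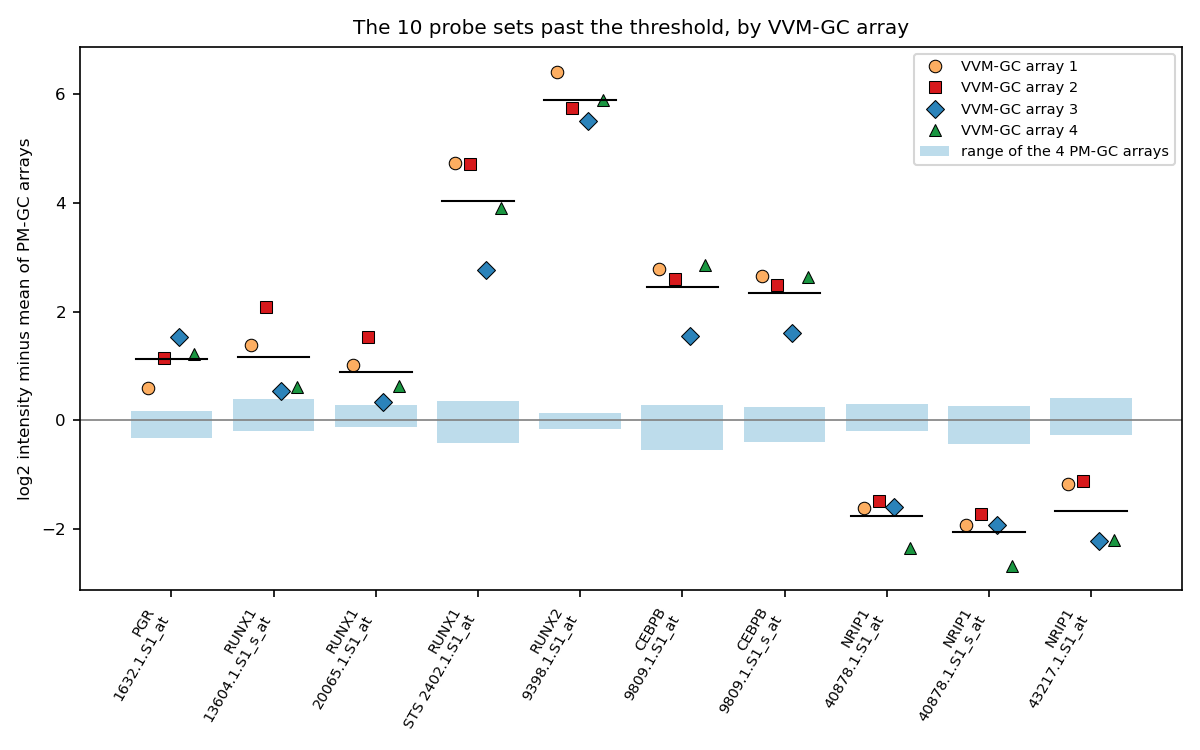
For the 10 member probe sets past the threshold, log2 intensity of each VVM-GC array minus the mean of the 4 PM-GC arrays (symbols), the mean of the VVM-GC arrays (black line) and the range of the PM-GC arrays around their mean (blue band). Array 3 (diamonds) is lowest for RUNX1, RUNX2 and CEBPB and highest for PGR.

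Further C/EBP factors, CEBPA, CEBPD and CEBPG, were also higher in VVM-GC. Of 11 measured genes in a list of C/EBP factors and their partners 4 were higher, 2 were lower and 5 did not pass, with a median of 0.05. Over all 14132 genes, each by its brightest probe set, 21.4% passed, 10.4% as higher and 11.1% as lower, with a median of -0.09. CEBPA, which acts with CEBPB in mouse granulosa cells, rose on all 3 of its probe sets. The brightest, MmuSTS.3401.1.S1_s_at, read 11.22, 10.23, 8.54 and 10.98 on VVM-GC arrays, against 6.27, 6.39, 6.16 and 5.83 on PM-GC arrays. The groups did not overlap, and VVM-GC array 3 was again the lowest of its group. The increase there was 4.08 on the log2 scale (SE 0.49, adjusted p = 0.000436), and MmuSTS.3401.1.S1_at rose by 2.80. MmunewRS.760.1.S1_at rose by 6.36 (SE 0.46, adjusted p = 2.35e-05). Its PM-GC mean, 4.68, lay below the array medians, and it was not followed in the alternative analyses. CEBPD, another member of the family, read 11.24, 11.67, 11.94 and 10.83 on VVM-GC arrays, against 9.79, 8.99, 8.64 and 9.33 on PM-GC arrays. Its groups did not overlap, and it rose by 2.23 (SE 0.28, adjusted p = 0.00061). CEBPG, which lacks an activation domain of its own, rose by 1.22 on 1 of 2 probe sets. CEBPE, a further member of the family, differed by -0.11 and did not pass (adjusted p = 0.609). It was named after its value was seen and was not followed in the alternative analyses.

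TRIB1 and TRIB2, pseudokinases that direct C/EBP proteins to degradation, moved in opposite directions. TRIB1 read 11.68, 11.33, 9.37 and 9.76 on VVM-GC arrays, against 7.08, 7.50, 6.57 and 6.49 on PM-GC arrays, on its brighter probe set, with no overlap and a rise of 3.62 (SE 0.49, adjusted p = 0.000876). Its other probe set differed by -0.16 and did not pass, and the average of both rose by 1.73. TRIB2 fell on all 4 of its probe sets, with differences of -2.88 to -2.11. DDIT3, a C/EBP relative that blocks their DNA binding, fell by 1.39 (adjusted p = 0.0196), and was named after its value was seen. Its call was lost without PM-GC array 1 or 4, with adjusted p up to 0.0629.

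CBFB, the shared partner of the RUNX factors, read 11.91, 11.63, 11.54 and 11.81 on VVM-GC arrays, against 11.16, 11.49, 11.30 and 11.38 on PM-GC arrays. The groups did not overlap, and the difference was 0.39 (SE 0.12, adjusted p = 0.0634). It passed in 3 of 14 alternative analyses. Its other probe set differed by 0.51 (adjusted p = 0.0505), and the average of both rose by 0.45 (adjusted p = 0.018 over genes). RUNX3, the remaining Runt-domain factor, averaged 4.93 ± 0.18 in VVM-GC and 5.32 ± 0.21 in PM-GC (adjusted p = 0.0942). Of 13 measured partners and corepressors 2 were higher, 1 was lower and 10 did not pass, with a median of -0.10. That is 23.1%, against 21.4% of all genes, and with averaged probe sets 3 were higher and 2 were lower. TLE3, a corepressor of the Groucho type, rose by 1.24 (adjusted p = 0.013), with 3 of 4 probe sets higher. HIPK2, a nuclear kinase, rose by 0.87 (adjusted p = 0.0139), with 2 of 7 probe sets higher, and TLE2, another corepressor, fell by 0.60 (adjusted p = 0.00373). Averaged over their probe sets, TLE3 rose by 0.69 and HIPK2 by 0.51.

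Among other coregulators of nuclear receptors, the class to which NRIP1 belongs, 2 of 19 were higher, 5 were lower and 12 did not pass, with a median of 0.16. The share that passed was 36.8%, against 21.4% of all genes. TBL1X, a subunit of the NCOR corepressor complex, rose by 2.09 (SE 0.23, adjusted p = 0.000287), and 4 of its 5 probe sets passed as higher. NCOR1 itself, the corepressor, fell by 1.02 (SE 0.26, adjusted p = 0.0266), with 2 of 5 probe sets lower and an average of -0.56. That call of NCOR1 was lost in 6 of 14 alternative analyses, with adjusted p up to 0.0887, among them those without VVM-GC array 2 or 3 or PM-GC array 2 or 3. The coactivator NCOA3 rose by 0.87 (adjusted p = 0.0173), with 2 of 6 probe sets higher and an average of 0.42, and NCOA2, a related coactivator, differed by 0.25 (adjusted p = 0.32). PPARGC1B, a coactivator of metabolic genes, fell by 0.83 on its brightest probe set, and 3 of its 4 probe sets passed as lower. NR0B1 and NR0B2, orphan receptors without a DNA-binding domain that repress others, fell by 0.83 and 0.53. With 32 added to each intensity those differences were -0.36 and -0.35. The last of the 5 lower genes, MED1, a mediator subunit, fell by 0.55 (adjusted p = 0.0313), and was named after its value was seen; the call was lost in 7 of 14 alternative analyses and on averaging its 4 probe sets (-0.24).

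**Figure D5:**
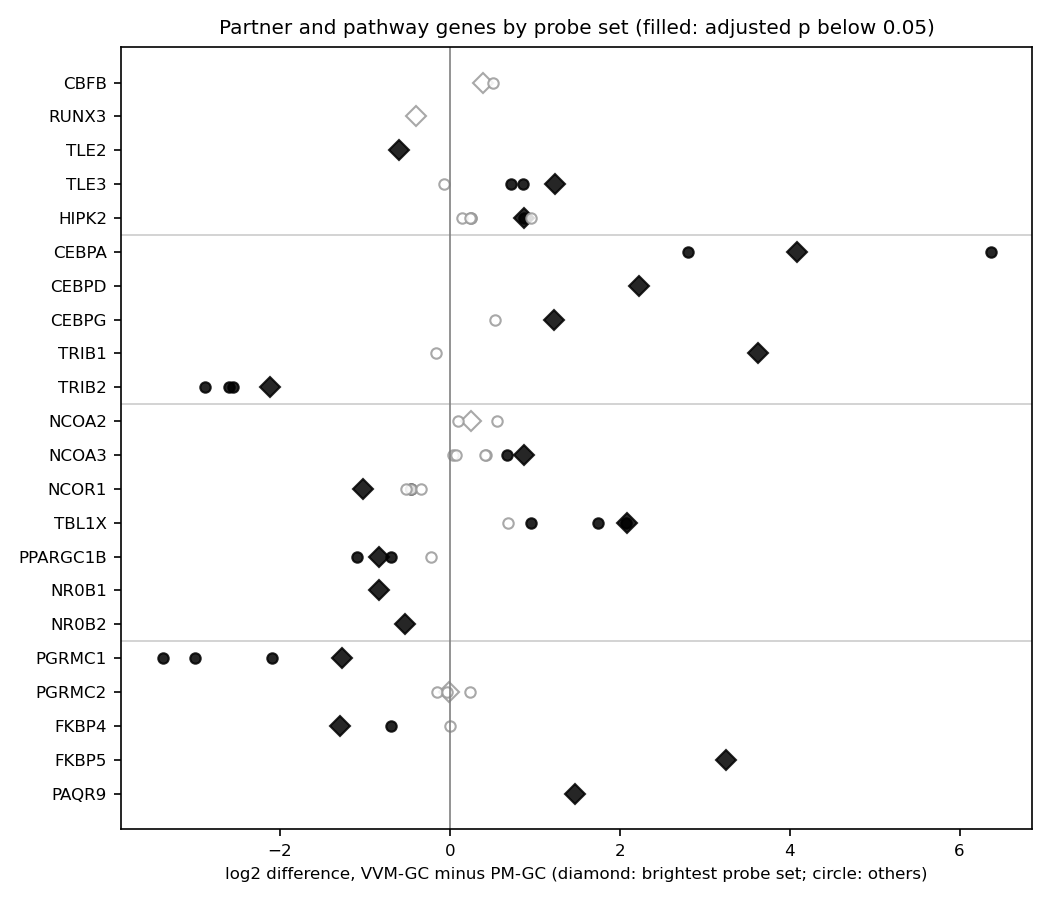
Log2 difference, VVM-GC minus PM-GC, of every probe set of partner and pathway genes, in 4 blocks from top to bottom: RUNX partners, C/EBP factors and TRIB genes, nuclear receptor coregulators, and progesterone signalling. Diamonds mark the brightest probe set of a gene and circles the others, and filled symbols passed the threshold; CEBPA reaches 6.36 and PGRMC1 reaches -3.38.

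In progesterone signalling outside PGR, 2 of 13 genes were higher, 2 were lower and 9 did not pass, with a median of -0.20. The share that passed was 30.8%, against 21.4% of all genes. PGRMC1, a membrane-associated progesterone receptor component, fell on all 4 of its probe sets. On the brightest it read 12.40, 12.83, 12.74 and 12.52 on VVM-GC arrays, against 14.00, 13.77, 13.93 and 13.88 on PM-GC arrays. The groups were clearly separate, with a difference of -1.27 (SE 0.12, adjusted p = 0.000121), and the other 3 fell by 2.09 to 3.38, which gave an average of -2.43. PGRMC2, its relative, differed by -0.01 (95% confidence interval -0.33 to 0.32, adjusted p = 0.984). FKBP5 and FKBP4 are immunophilins that bind steroid receptor complexes. FKBP5 rose by 3.26 (SE 0.31, adjusted p = 0.000122), and FKBP4 fell by 1.29 (SE 0.22, adjusted p = 0.00364) with 2 of 3 probe sets lower and an average of -0.66. PAQR9, a membrane progestin receptor, read 4.84, 5.29, 6.23 and 4.33 on VVM-GC arrays, against 3.74, 3.85, 3.70 and 3.52 on PM-GC arrays. The groups did not overlap and it rose by 1.47 (adjusted p = 0.0151), but with 32 added to each intensity the difference was 0.64 and did not pass.

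Genes tied to these regulators in rodents were followed as lists, which overlap one another and the granulosa markers given above. Over all genes, each by its brightest probe set, 21.4% passed, 10.4% as higher and 11.1% as lower. Of 10 measured genes that need PGR in mouse follicles 6 were higher, none were lower and 4 did not pass, with a median of 0.76. AREG, an EGF-like growth factor, rose by 6.77, ZBTB16, a zinc finger repressor, by 2.92, ADAMTS1, a matrix protease, by 3.52, and EPAS1, a hypoxia-inducible factor, by 3.37. The other probe set of EPAS1 differed by -0.05 and did not pass, and the average of both rose by 1.66. CTSL, a lysosomal protease, and CITED2, a coregulator of hypoxia-inducible factors, were higher as well and were named after their values were seen. CTSL rose by 0.51, a call lost with repeated quantile normalization (adjusted p = 0.0914). CITED2 averaged 10.68 ± 0.42 in VVM-GC and 9.68 ± 0.47 in PM-GC (adjusted p = 0.0296), a call lost in 6 of 14 alternative analyses and on averaging its 2 probe sets. Of 6 genes tied to C/EBP factors in rodent granulosa cells 3 were higher, 2 were lower and 1 did not pass. PTX3, TNFAIP6 and STAR were higher, with differences of 6.74, 5.43 and 3.60. CYP19A1 and INHA were lower, with differences of -2.08 and -0.57. Whether C/EBP factors raise or lower each of these genes was not taken into account. PTX3 averaged 9.74 ± 0.76 in VVM-GC and 3.01 ± 0.36 in PM-GC, where it lay near the low end of the array, and with 32 added to each intensity its difference was 4.47. Of 6 genes that need NRIP1 in mice 5 were higher and 1 did not pass, with a median of 4.09. They were PTX3, AREG, TNFAIP6, HAS2 and BTC, with HAS2, a hyaluronan synthase, at 2.75 and BTC, an EGF-like ligand, at 1.39 (adjusted p = 0.0453). The BTC call was lost in 9 of 14 alternative analyses. Its other probe set differed by 0.13, and the average of both, 0.76, did not pass (adjusted p = 0.0929 over genes). NRIP1 itself was lower in the same arrays, as given above. Of 6 genes tied to RUNX factors in rodents 1 was higher, RGCC, a cell cycle regulator, by 3.12, and 1 was lower, FABP6, a bile acid binding protein, by 0.37. The FABP6 call was lost in 10 of 13 alternative analyses, and its difference with 32 added was -0.16. PTGS2 and CYP11A1, central targets in several of these lists, could not be matched to a probe set with 1 symbol.

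Other transcription factors gave the setting. Of 21 measured factors known to respond to the LH surge 5 were higher, 1 was lower and 15 did not pass, with a median of 0.07. The share that passed was 28.6%, against 21.4% of all genes. EPAS1 and CITED2 are among the 5. FOSL2, an AP-1 subunit, rose by 1.30 (adjusted p = 0.00333), and BHLHE40, a repressor of the circadian clock, rose by 2.41 (adjusted p = 0.0252). NR4A2, an orphan receptor, rose by 0.67, while its relative NR4A1 fell by 0.82 and was named after its value was seen. The other probe set of BHLHE40 differed by 0.23 and did not pass, and the average of both rose by 1.32. Of 5 NR4A2 probe sets 2 were higher, and their average, 0.58, did not pass (adjusted p = 0.147 over genes). The calls of BHLHE40, NR4A2 and NR4A1 were lost in 5, 7 and 5 of 14 alternative analyses. Of 16 factors and steroid receptors of granulosa cells 3 were higher, 5 were lower and 8 did not pass, with a median of -0.20. NR5A2 in this list is also among the granulosa markers given above. RORA, a nuclear receptor, rose by 5.44, NR2F1, an orphan nuclear receptor, by 4.45 and WT1, a zinc finger factor of the gonad, by 3.94. The other probe set of WT1 differed by 0.13 and did not pass, and the average of both rose by 2.04. SMAD2, which carries activin signals, fell by 0.95, with 2 of 4 probe sets lower and an average of -0.66. GATA4, NR5A2, NR5A1 and ESR1 fell by 1.24, 1.51, 0.76 and 0.82 and were named after their values were seen, and the call of ESR1 was lost in 10 of 13 alternative analyses, with a difference of -0.37 when 32 was added. Of 13 genes of LH receptor signalling 4 were higher and 9 did not pass, with a median of 0.18. The share that passed was 30.8%, against 21.4% of all genes. RGS2, which limits G protein signals, rose by 3.70 and MAP2K1, a kinase upstream of ERK, by 1.03; AREG and BTC were the others. The other probe set of RGS2 rose by 1.13, and the average of both by 2.41. LHCGR, the LH receptor, could not be matched.

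The genes whose 8 log2 values most resembled each member were found by Pearson correlation with the member's probe set of lowest p. This r includes the difference between the groups and is a description only. For RUNX2 they were GPRC5B, RND3 and PPP3CC (r = 0.997 for each), which were higher by 5.85, 4.43 and 2.74. For CEBPB they were BACH1 (r = 0.997), CLIC4 (0.995) and GADD45B (0.995). For RUNX1 they were ABHD5 (0.994), DENND1B (0.993) and GADD45B (0.993). For PGR they were CD55 (0.990), FIS1 (0.985) and BSG (0.981), and for NRIP1 they were TWNK (0.998), DNAJC11 (0.993) and OBSL1 (0.992). Those of NRIP1 were lower and the others were higher. This followed from choosing them by r with probe sets that separated the groups, and is no separate result.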

How the data were processed

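The data are 8 Affymetrix rhesus macaque arrays, 4 VVM-GC and 4 PM-GC. Per the labels' protocols, 50 ng of total RNA was amplified in 2 rounds and labelled with biotin. Per the submitters' processing notes, the authors used Expression Console and RMA to make the intensity values, with no version named there. The deposited intensity values are linear, so log2 was taken and nothing else was changed. Of 52865 table entries 99 array controls were left out. A single symbol was annotated for 24956 probe sets, more than 1 for 361 and no symbol for 27449, and 24616 of the first had a gene ID in the reference table. NRIP1 kept the platform's symbol, because its gene ID was not matched there. The table has no detection calls, and precision is limited by having 4 arrays a group.

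Groups were compared with limma 3.58.1 in R 4.3.3 (lmFit, eBayes; Benjamini-Hochberg over 52766 probe sets; threshold 0.05), checked on simulated data. In the lists a gene is represented by its probe set of highest mean signal. Single values were tested by exact permutation, two-sided, over 70 splits. The planned permutation test of pairs of probe sets is not reported, since their disagreement was known when the genes were chosen. There are 11 pathway and 7 marker lists, with 181 of 242 distinct genes measured. Named are all member probe sets, up to 4 genes of lowest adjusted p per list without overlap between groups, some fixed partners and the 3 most alike genes per member; exceptions are stated. Members, lists and rules were chosen with earlier results of these data known. Alternatives were equal array medians, repeated quantile normalization, 32 added to intensities, a filter of low signals, a trended robust variance, the replicate number as a block, averaged probe sets, and leaving out each array.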

Additional observations from a re-analysis of the deposited data

Results flagged for a closer look

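In 5 of 36 groups of 4 arrays, 1 array stood apart from the other 3 by Dixon's criterion (its gap to the nearest array over the range of the group), which chance gives in about 5% of groups. The CEBPB probe set MmugDNA.9809.1.S1_s_at read 11.48 on VVM-GC array 3, against 12.36 to 12.52 on the other VVM-GC arrays. The NRIP1 probe set MmugDNA.40878.1.S1_at read 7.04 on VVM-GC array 4, against 7.79 to 7.92 on the others. The RUNX1 probe set MmugDNA.20065.1.S1_at read 6.10 on PM-GC array 4, against 5.69 to 5.75 on the other PM-GC arrays. The RUNX2 probe set MmugDNA.13497.1.S1_at read 4.06 on PM-GC array 4, against 3.60 to 3.66 on the others. The RUNX2 probe set MmugDNA.18234.1.S1_at read 5.20 on PM-GC array 1, against 5.52 to 5.58 on the others. Without the array in question the CEBPB and NRIP1 probe sets still passed.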

How the results depend on the processing

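The count of member probe sets past the threshold was 10 of 18 and lay between 8 and 10 over 14 alternatives. It was 8 with 32 added to intensities, with the replicate number as a block, and without VVM-GC array 1 or PM-GC array 1, 2 or 3, and 9 without VVM-GC array 2. The calls lost were those of MmugDNA.13604.1.S1_s_at and MmugDNA.20065.1.S1_at of RUNX1. The other 8 calls held in all 14. All probe sets past the threshold numbered 7434, and 5682 to 7712 over the alternatives. Deviations of arrays with the same replicate number in their titles correlated at -0.01 to 0.15, and 1 of 4 correlated best with its own number. Whether same-numbered arrays shared an animal or a batch was not tested. With the replicate number as a block 6742 probe sets passed. Pairs of probe sets that separated the groups numbered 10 of 15 with the filter of low signals, in place of 20 of 35, since 5 member probe sets were then left out, and 20 to 26 when single arrays were left out. The RUNX2 gene value was 1.21 for the average of its probe sets in place of -0.20 for the brightest. Near-zero differences changed sign: that of RUNX1 MmugDNA.30840.1.S1_at ranged from -0.011 to 0.12 when single arrays were left out, and that of PGRMC2 MmugDNA.21519.1.S1_at from -0.14 to 0.050, with 0.034 at equal array medians. Of 994 values of the named list and resembling genes and of gene values, 909 kept direction and call, 75 lost the call, 3 gained it and 7 changed sign.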
